A study of Homo sapiens with 6 samples.

Results

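The genes described here are the protein-coding genes of chromosome 19 whose symbol is ZNF followed by a digit. They were taken from the deposited gene count table by biotype, chromosome and symbol alone, and 249 of its 58735 genes met the rule. SKOV3ip1, an established human ovarian adenocarcinoma cell line, was transfected in culture with siRNA against BARD1 or with control siRNA (2 µg of siRNA with a lipid reagent), and RNA was collected 48 h later. The labels give a wild-type genotype to all samples and name the source as tumors, whereas the protocols describe cultured cells. Each group held 3 libraries of poly(A)-selected RNA, and the study's stated question was how silencing BARD1 affects pathways of tumor angiogenesis. The labels call the 3 samples of a group biological replicates without describing how they were separated, so the p-values below measure the spread between these samples.

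Most ZNF genes of chromosome 19 encode proteins that read DNA through long rows of C2H2 zinc fingers and carry a KRAB domain at the other end. The KRAB domain recruits the corepressor TRIM28, which brings the histone methyltransferase SETDB1, HP1 proteins and histone deacetylases to the bound site. Many of these proteins silence transposable elements, and the genes lie in large clusters that grew by duplication. BARD1 is the partner of BRCA1 in a ubiquitin ligase that acts in DNA repair.

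Library totals lay between 16621108 and 17743404 counts. BARD1 itself had 45.8, 37.8 and 49.2 CPM (library-size-scaled counts, with TMM factors) in the control libraries and 5.91, 6.52 and 9.71 CPM in the BARD1 siRNA libraries, which is 5.98-fold lower. In bulk RNA, a change per cell and a change in the share of cells that express a gene cannot be told apart. The keratin genes KRT7, KRT8, KRT18 and KRT19, EPCAM, PAX8 and ERBB2 were all present, with KRT8 at 1190 to 1320 CPM. WT1 and MUC16 stayed under 1 CPM in every library. Of 5 leukocyte markers, 4 had no count in any library and CD14 had 4 counts in all, and the fibroblast collagen COL3A1 reached 20.0 CPM.

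Of the 249 ZNF genes, 235 had enough counts to be tested. Among the other 14, ZNF208, ZNF723, ZNF728 and ZNF816-ZNF321P had no count in any library, and the rest had between 1 and 42 counts over all 6 libraries; ZNF99 had 21 counts in each group. A C2H2 finger pattern occurred 3 or more times in the translated longest reading frame of 245 of the 248 genes that had one, so the symbol matched the protein type. The number of fingers ran from 0 to 39, with a median of 12, and ZNF729 had the most. A KRAB motif was found in 211 of these 248 genes (85.1%), against 28.5% of the other 464 protein-coding genes with 3 or more fingers.

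At the tip of the short arm, 5 neighbouring ZNF genes all rose after BARD1 siRNA. ZNF554, ZNF555, ZNF556, ZNF57 and ZNF77, all with a KRAB motif, fill 125.1 kb of 19p13.3, from base 2819874 to base 2944971 of chromosome 19 on GRCh38. The stretch before each start site is printed because 4 of the 5 hold an unusual number of CCAAT boxes, the letters read by the factor NF-Y. These are the 250 bases before the RefSeq start on GRCh38.p14, 5′ to 3′ on the gene's own strand, with CCAAT and its reverse complement ATTGG in capitals.
ZNF554: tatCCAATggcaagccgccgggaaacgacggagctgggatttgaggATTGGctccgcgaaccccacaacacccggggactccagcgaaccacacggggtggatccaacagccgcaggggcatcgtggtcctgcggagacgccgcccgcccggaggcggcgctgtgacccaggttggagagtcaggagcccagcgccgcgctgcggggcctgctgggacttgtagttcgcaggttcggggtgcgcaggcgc
ZNF555: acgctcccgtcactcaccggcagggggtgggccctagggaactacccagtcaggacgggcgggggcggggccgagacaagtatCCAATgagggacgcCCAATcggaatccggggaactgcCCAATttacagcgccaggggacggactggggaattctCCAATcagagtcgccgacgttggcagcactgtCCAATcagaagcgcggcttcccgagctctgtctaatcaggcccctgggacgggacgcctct
ZNF556: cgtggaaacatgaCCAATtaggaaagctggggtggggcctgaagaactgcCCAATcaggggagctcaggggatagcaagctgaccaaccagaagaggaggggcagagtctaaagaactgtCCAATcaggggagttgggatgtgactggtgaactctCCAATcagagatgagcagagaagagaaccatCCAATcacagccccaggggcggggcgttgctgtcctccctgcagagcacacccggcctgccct
ZNF57: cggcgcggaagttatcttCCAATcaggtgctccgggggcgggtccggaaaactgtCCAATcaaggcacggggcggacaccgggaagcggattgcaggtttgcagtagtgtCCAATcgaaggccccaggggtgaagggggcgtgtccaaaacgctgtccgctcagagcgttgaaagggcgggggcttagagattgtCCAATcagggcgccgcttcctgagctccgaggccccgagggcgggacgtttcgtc
ZNF77: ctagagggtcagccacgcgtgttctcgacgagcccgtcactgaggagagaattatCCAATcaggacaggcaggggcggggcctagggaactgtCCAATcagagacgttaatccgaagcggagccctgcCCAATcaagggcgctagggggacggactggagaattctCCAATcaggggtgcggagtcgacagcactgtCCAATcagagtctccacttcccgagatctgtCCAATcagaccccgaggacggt
The windows are chr19:2819618-2819867, chr19:2841225-2841474, chr19:2867085-2867334 and chr19:2900678-2900927 on the plus strand, in that order, and chr19:2944972-2945221 on the minus strand for ZNF77. They lie at most 40 bases from the start that the count table gives.

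ZNF556 had the highest fold change among all tested ZNF genes of the chromosome. It had 1.37, 0.939 and 1.44 CPM in the control libraries and 6.65, 6.75 and 7.07 CPM after BARD1 siRNA, from 16 to 26 counts per control library. The groups were far apart, with means of 1.25 ± 0.271 and 6.82 ± 0.219 CPM (SD, n = 3 each). The log2 fold change was 2.44 (SE 0.26, adjusted p = 3.05e-11 by edgeR's quasi-likelihood test with Benjamini-Hochberg adjustment over all 15271 tested genes, which holds for every adjusted p below).

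ZNF554 had 6.89, 7.63 and 6.16 CPM in the control libraries and 15.6, 14.6 and 18.0 CPM after BARD1 siRNA. The lowest BARD1 siRNA library was well above the highest control (log2 fold change 1.22, SE 0.15, edgeR adjusted p = 9.98e-10). ZNF555 had 12.7, 13.3 and 13.6 against 25.0, 26.7 and 23.8 CPM, and its control libraries were the most tightly grouped of the 5 genes relative to their mean (0.93, SE 0.11, edgeR adjusted p = 1.23e-09). ZNF57 had 4.95, 5.40 and 4.66 against 9.29, 12.7 and 9.37 CPM, with the second BARD1 siRNA library above the others (1.06, SE 0.18, edgeR adjusted p = 2.06e-06). ZNF77 changed least: its control libraries had 6.77, 6.75 and 7.99 CPM and its BARD1 siRNA libraries 9.48, 13.0 and 11.0 CPM. Its groups did not overlap either (0.64, SE 0.16, edgeR adjusted p = 0.00111).

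The other genes around this stretch moved in both directions. Within 250 kb on either side, 9 protein-coding genes outside the family were tested, and 3 were higher and 1 was lower. That is 44.4% called, beside 42.3% of all tested genes. All 3 higher genes lie on the ZNF554 side, and SGTA and THOP1 are the tested genes next to ZNF554. Whether they changed together with the 5 ZNF genes was not tested. DIRAS1, a Ras-related GTPase gene, rose by 0.46 on the log2 scale, THOP1, a peptidase gene, by 0.33 and SGTA, a co-chaperone gene, by 0.23. TLE6, which encodes a Groucho-family protein, fell by 1.46 (edgeR adjusted p = 0.00783) at a level under 2 CPM in both groups. TLE2, AES, GNA11, NCLN and SLC39A3 did not pass the threshold. The rule that formed the group of 5 ZNF genes used positions only.

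**Figure D1:**
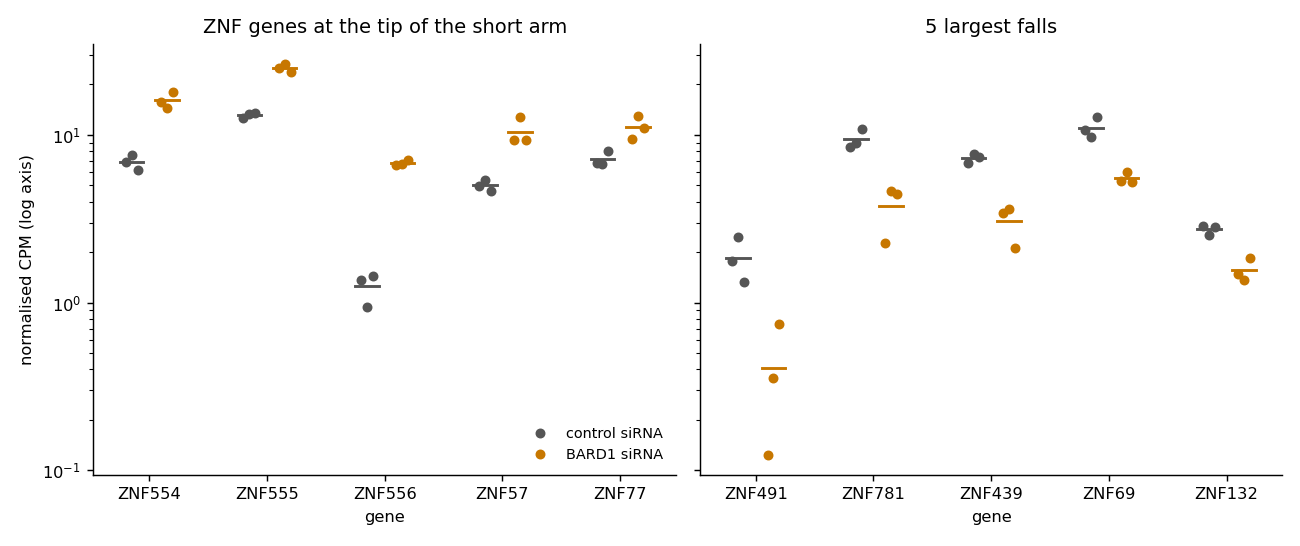
Normalised CPM per library on a log axis for the 5 ZNF genes of 19p13.3 (left) and the 5 largest falls among ZNF genes, leaving out the weakly expressed ZNF559-ZNF177 (right); points are libraries, grey for control siRNA and orange for BARD1 siRNA, and bars are means of 3. The 5 falls were chosen among genes whose groups did not overlap, and the groups of the 5 genes on the left do not overlap. Such separation was seen for 50.4% of all tested genes. ZNF491 falls to between 0.123 and 0.747 CPM.

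In the full 300-base RefSeq windows (250 bases before the start and 50 after), CCAAT occurred on either strand 6 times in ZNF77, 5 times in ZNF555 and ZNF556, 4 times in ZNF57 and 2 times in ZNF554. RefSeq windows matched 217 of the 249 ZNF genes, and 33 of them lie more than 1 kb from the start in the count table. Of these 217, 6 had 4 or more boxes, and the 3 with 5 or more all belong to this stretch. Windows with 4 or more made up 0.991% of all 35116 promoters in the table and 1.19% of the 14903 matched protein-coding genes. The other 2 ZNF genes with 4 boxes were ZNF317, which was called higher at 0.41, and ZNF8, which did not pass the threshold. With 3 boxes, 4 ZNF genes were tested and 0 were called, with a median log2 fold change of -0.22. Outside the family, 157 protein-coding genes with 4 or more boxes were tested, of which 42 were higher and 45 lower (26.8% and 28.7%). Among all tested protein-coding genes the shares were 24.3% and 22.8%. Counting boxes per window was chosen after the sequences were seen, and the 5 genes of the stretch after their values were seen.

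In the printed stretches many of the boxes continue as CCAATCAG. Those 8 letters, on either strand, occurred 5 times in the ZNF77 window, 3 times in that of ZNF556 and 2 times each in those of ZNF555 and ZNF57. They were common across the family: 58 of the 217 windows held at least 1 copy (26.7%), against 5.10% of matched protein-coding genes. With 2 or more copies the shares were 9.22% and 0.49%. The highest identity among the 5 stretches was 69.3%, between ZNF555 and ZNF77, and ZNF554 shared 50.0% to 51.2% with the other 4. The remaining pairs shared 54.8% to 58.9%. For scale, ZNF653 of the cluster from 11.48 Mb shared 47.8% to 52.5% with the other genes there. Whether the stretches are diverged duplicates was not tested. Whether the boxes have a part in the rise was not tested.

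**Figure D2:**
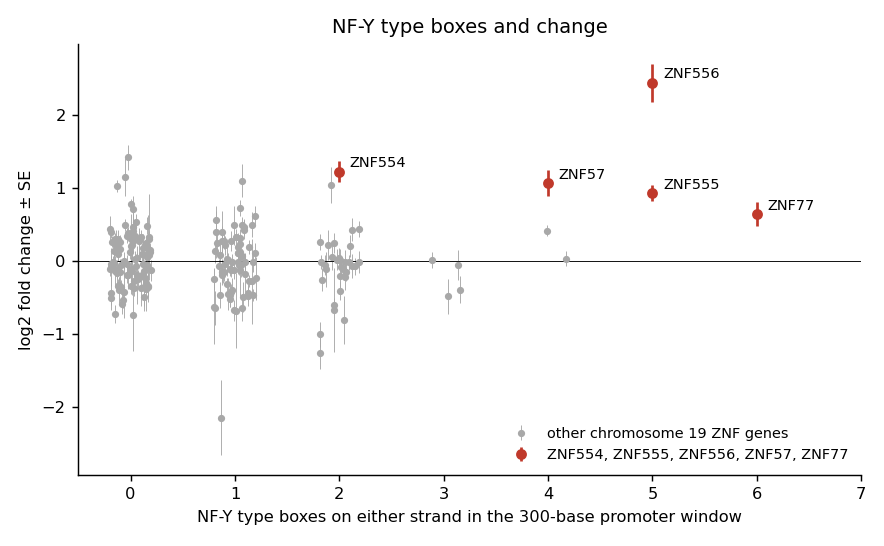
Log2 fold change with its SE against the number of NF-Y type boxes (CCAAT on either strand) in the 300-base promoter window, for tested ZNF genes of chromosome 19 with a RefSeq window; points are spread sideways by a small random amount except for the 5 red genes. ZNF556, ZNF555, ZNF57 and ZNF77 stand at 4 to 6 boxes, and ZNF554 rises by 1.22 with 2 boxes.

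Across the whole family, 43 of the 235 tested ZNF genes were higher after BARD1 siRNA and 39 were lower, so 34.9% passed the threshold, against 42.3% of all tested genes. Separately by direction, 18.3% were higher against 22.0% of all tested genes, and 16.6% were lower against 20.3%. The 3 libraries of one group lay entirely above those of the other for 104 of the 235, while 50.4% of all tested genes showed this. The median log2 fold change was -0.03, beside -0.01 over all tested genes, and single values ran from -2.14 to 2.44. At least 2-fold changes were called for 8 higher (3.4%) and 5 lower genes (2.13%), beside 4.48% and 1.94% of all tested genes. With upper-quartile factors the split among called ZNF genes was 33 higher and 44 lower, and with library size alone 34 and 44; the split of all called genes moved with it, from 51.9% higher to 41.5% and 42.2%.

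**Figure D3:**
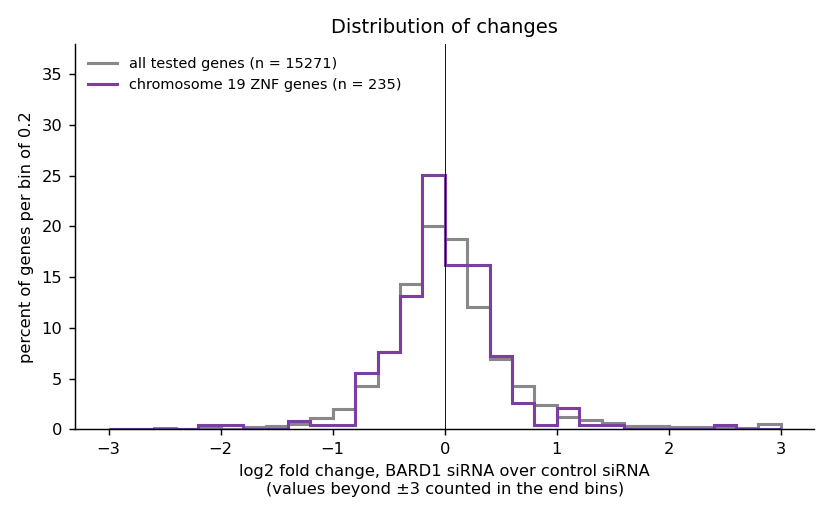
Distribution of log2 fold changes (BARD1 siRNA over control siRNA) in bins of 0.2, as a percent of genes, for the 235 tested ZNF genes of chromosome 19 and all 15271 tested genes. Both distributions centre near 0, with medians of -0.03 and -0.01.

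The family took a small and similar share of the RNA in both groups. ZNF genes of chromosome 19 took 0.394% to 0.412% of the counts in each library. Their summed level was 4054, 3847 and 3971 CPM in the control libraries and 4129, 4092 and 4180 CPM after BARD1 siRNA, so all BARD1 siRNA sums were above all control sums on this TMM-scaled measure. As a share of raw counts the groups overlapped, and the highest share was in a control library. Single members were weakly expressed: the median level was 12.7 CPM, against 22.3 CPM for all tested genes. Below 10 CPM, 22 of 94 ZNF genes were called (23.4%), beside 20.0% of all genes in that range. At 10 CPM or more, 60 of 141 were called (42.6%), beside 54.7% of all genes. Levels were not matched within these ranges. The median was 5.31 CPM for ZNF genes and 2.09 CPM for all genes in the lower range, and 20.7 and 47.4 CPM in the upper.

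ZNF genes elsewhere in the genome gave a similar share of calls, 35.1% beside 34.9% on chromosome 19. Of 231 tested on other chromosomes, 49 were higher and 32 lower (21.2% and 13.9%), with a median of 0.02. Among all tested genes, 22.0% were higher and 20.3% lower. At least 2-fold changes were fewer on other chromosomes, with 1 higher (0.433%) and 3 lower (1.3%), beside 3.4% and 2.13% on chromosome 19. The other 728 tested protein-coding genes of chromosome 19 leaned upward, with 210 higher and 114 lower (28.8% and 15.7%) and a median of 0.07. These differences between gene groups were not tested. Of the 201 tested ZNF genes of chromosome 19 with a KRAB motif, 33 were higher and 35 lower (16.4% and 17.4%). Among the 34 without it, 10 were higher and 4 lower (29.4% and 11.8%). Median levels were 12.1 CPM with the motif and 18.9 CPM without it, and the contrast was not tested. Without the motif, the higher genes were led by ZNF83 (0.78), ZNF579 (0.54) and ZNF628 (0.47). The lower genes without it were ZNF491 (-2.14), ZNF781 (-1.31), ZNF180 (-0.50) and ZNF260 (-0.28). The median number of fingers was 11 in the higher genes, 13 in the lower genes and 13 in the rest.

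**Figure D4:**
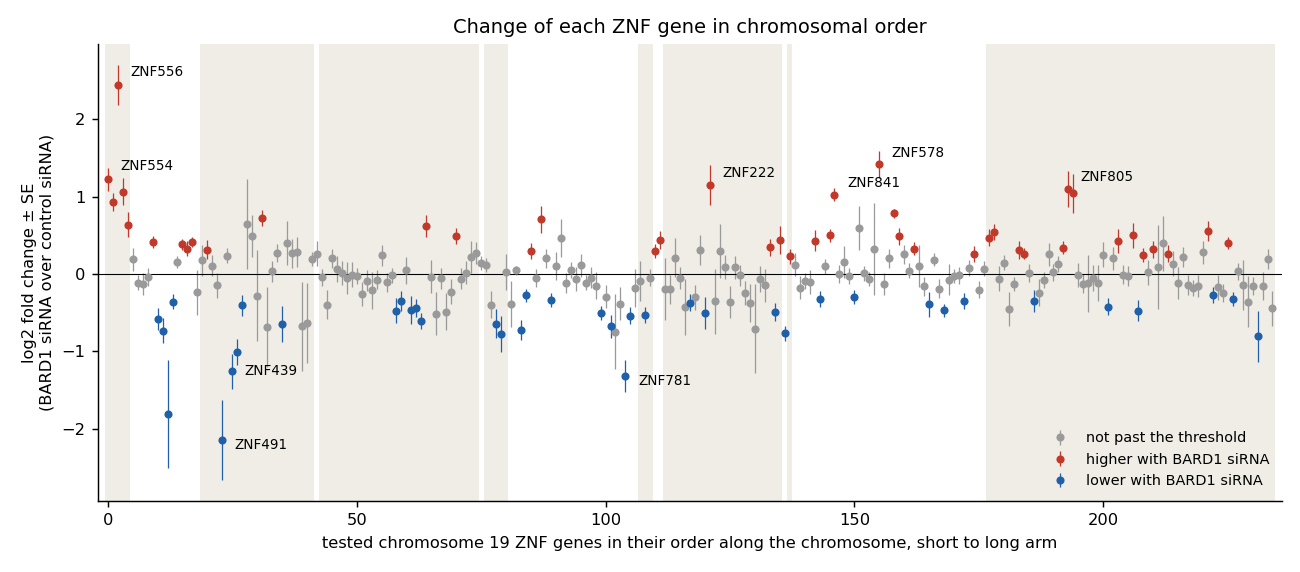
Log2 fold change with its SE for the 235 tested ZNF genes in their order along chromosome 19; red and blue mark genes called higher and lower, and shading alternates between position clusters separated by more than 1 Mb. The first 5 genes are all red, and elsewhere red and blue genes are interspersed.

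By position the 249 genes fell into 16 clusters separated by gaps of more than 1 Mb, 7 of which held more than 10 members. Among neighbouring called genes in a cluster, 43 of 69 pairs had the same direction (62.3%). The cluster from ZNF554 to ZNF77, in which every gene was called higher, supplied some of the matching pairs. No such share was computed for genes outside the family, so whether 62.3% is unusual was not tested. The largest cluster, from 55.48 to 58.48 Mb, had 14 higher and 6 lower of 58 tested (24.1% and 10.3%), or 34.5% called. Among all tested genes 42.3% were called, with 22.0% higher and 20.3% lower. The cluster from 51.57 to 53.58 Mb had 8 higher and 5 lower of 39 (33.3% called). The pericentromeric cluster from 19.67 to 24.13 Mb holds the retroelement repressors ZNF91 and ZNF93. It had 2 higher and 5 lower of 32 (21.9% called), the smallest share of called genes among the large clusters. The remaining large clusters had 4 higher and 4 lower of 14 from 7.07 Mb (57.1% called) and 2 and 5 of 23 from 11.48 Mb (30.4%). Next came 2 and 7 of 26 from 36.18 Mb (34.6%), and 3 and 3 of 24 from 43.53 Mb (25.0%). Median levels in the large clusters ran from 6.32 CPM (from 11.48 Mb) to 24.8 CPM (from 7.07 Mb). Differences between clusters were not tested.

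Apart from the 19p13.3 genes, the largest rises came from the long arm. The 10 named rises and 10 named falls were taken from called genes whose groups did not overlap. ZNF578 had 5.98, 3.76 and 4.99 CPM in the control libraries and 12.7, 12.4 and 14.2 CPM after BARD1 siRNA, so the groups were well separated (log2 fold change 1.42, SE 0.17, edgeR adjusted p = 8.85e-10). ZNF841, which lies in the same cluster, had 31.1, 32.8 and 27.3 against 64.7, 59.5 and 60.8 CPM. Each of its BARD1 siRNA libraries was close to 2-fold the control level (1.02, SE 0.08, edgeR adjusted p = 4.79e-15). ZNF83 had 76.8, 71.0 and 78.8 against 132, 133 and 126 CPM and was the most abundant of the strongly raised genes (0.78, SE 0.06, edgeR adjusted p = 8.88e-16). ZNF222 (1.15), ZNF805 (1.10) and ZNF460 (1.04) also rose at least 2-fold, from means of 2.23, 2.74 and 2.70 CPM. Exons of ZNF578 and ZNF460 overlap those of another tested gene over 9.9% and 13.9% of their length, in each case a gene with fewer counts, and ZNF222 shares 14.0% of its 100-base windows with another gene.

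Runs of tested neighbours were cut by the sign of their estimates, so the shared direction within a run was fixed by that choice. ZNF83 stood in a run of 7 tested neighbours from ZNF701 to ZNF320 whose estimates were all above 0, with a median of 0.25. Of these, ZNF83, ZNF611 (0.48) and ZNF468 (0.33) passed the threshold. ZNF468 and ZNF320 overlap over 53.0% and 72.5% of their exon bases. ZNF320 shares 99.4% of its 100-base windows with ZNF468, so reads of ZNF320 cannot be told apart from those of ZNF468. In the transcript compared, ZNF468 shares 2.3% of its own windows with other genes. Its reads from the overlapped exon bases remain uncertain. ZNF841 lay outside that run.

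Among the 10 named falls, that of ZNF491 was the largest, and ZNF781 (-1.31) of the long arm came next. ZNF439 and ZNF69 followed, and both lie in 19p13.2, as does ZNF491. The upstream stretches of ZNF491, ZNF439 and ZNF69 are printed because those of ZNF439 and ZNF69 are close copies. That of ZNF440, which lies between ZNF491 and ZNF439 and was not lower, is printed with them. As above, they are the 250 bases before the RefSeq start with CCAAT in capitals.
ZNF491: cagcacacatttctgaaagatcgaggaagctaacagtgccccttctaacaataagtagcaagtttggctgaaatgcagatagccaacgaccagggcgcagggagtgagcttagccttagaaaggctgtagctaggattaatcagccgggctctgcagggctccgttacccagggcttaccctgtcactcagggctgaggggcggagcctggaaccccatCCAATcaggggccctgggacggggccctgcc
ZNF440: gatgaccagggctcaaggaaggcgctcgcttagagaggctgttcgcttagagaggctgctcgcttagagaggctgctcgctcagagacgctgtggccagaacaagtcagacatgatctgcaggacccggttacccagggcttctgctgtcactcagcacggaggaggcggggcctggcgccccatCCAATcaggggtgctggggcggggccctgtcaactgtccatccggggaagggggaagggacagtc
ZNF439: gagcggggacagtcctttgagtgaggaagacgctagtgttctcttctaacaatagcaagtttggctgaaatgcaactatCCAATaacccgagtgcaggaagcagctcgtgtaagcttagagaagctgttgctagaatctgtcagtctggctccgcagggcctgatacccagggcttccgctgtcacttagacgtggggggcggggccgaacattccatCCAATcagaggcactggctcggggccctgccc
ZNF69: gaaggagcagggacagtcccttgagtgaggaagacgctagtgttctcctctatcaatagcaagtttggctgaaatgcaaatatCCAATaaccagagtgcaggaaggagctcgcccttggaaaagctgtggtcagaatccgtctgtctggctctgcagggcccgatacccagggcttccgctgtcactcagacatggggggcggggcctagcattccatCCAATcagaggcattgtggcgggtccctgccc
The windows are chr19:11798273-11798522, chr19:11814023-11814272, chr19:11848476-11848725 and chr19:11887532-11887781, all on the plus strand. The RefSeq start of ZNF491 lies 856 bases from the start in the count table. ZNF439 and ZNF69 were 86.2% identical over this stretch, and ZNF491 shared 72.0% with each of them. ZNF440 shared 55.9% with ZNF439, 56.3% with ZNF69 and 56.6% with ZNF491.

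ZNF439 had 6.83, 7.69 and 7.43 CPM in the control libraries and 3.45, 3.61 and 2.13 CPM after BARD1 siRNA, with the third BARD1 siRNA library lowest (log2 fold change -1.26, SE 0.22, edgeR adjusted p = 5.07e-06). ZNF69, its next neighbour, had 10.6, 9.69 and 12.8 against 5.29, 5.98 and 5.23 CPM, and the groups did not overlap (2.01-fold lower, SE 0.17 on the log2 scale, edgeR adjusted p = 2.53e-06). ZNF440 did not pass the threshold and had a positive estimate (0.24, SE 0.10, edgeR adjusted p = 0.0546). ZNF700, which follows ZNF69, fell by 0.41. ZNF491, before ZNF440, had 31, 42 and 24 counts in the control libraries and 2, 6 and 13 counts after BARD1 siRNA, which corresponds to 1.85 ± 0.573 and 0.408 ± 0.315 CPM (SD, n = 3 each). Its log2 fold change was -2.14 (SE 0.51, edgeR adjusted p = 0.000532), and it passed the filter on low counts through its control libraries. Without the third BARD1 siRNA library, its highest, the log2 fold change was -2.91.

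Elsewhere in this cluster, ZNF844 rose by 0.72 and ZNF563 fell by 0.65. ZNF563 and ZNF443 were 78.2% identical over the 250 bases, and ZNF443 had an estimate of 0.28 that did not pass. The pairs compared here were chosen after their values were seen, and no relation between upstream sequence and change was tested.

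In the 36.18 Mb cluster, a run of 11 tested neighbours from ZNF585B to ZNF573, picked by sign, had estimates below 0, with a median of -0.38. Of these, 4 were called lower. The matching group is all tested genes with estimates below 0. It held 7737 genes, of which 3107 were called lower. ZNF781 had 8.43, 8.92 and 10.9 CPM in the control libraries and 2.28, 4.62 and 4.42 CPM after BARD1 siRNA, with the first BARD1 siRNA library lowest (-1.31, SE 0.21, edgeR adjusted p = 7.45e-07). Its exons overlap those of ZFP30, a gene with more counts, over 9.4% of their length, so its counts are uncertain. ZNF793 fell by 0.68, ZNF607 by 0.54 and ZNF569 by 0.50. ZNF566, nearer the start of the cluster, had 27.2, 21.0 and 24.9 against 15.9, 11.3 and 17.0 CPM (-0.73, SE 0.13, edgeR adjusted p = 6.61e-06).

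Opposite runs, also picked by sign, met in 19p13.2 nearer the tip. Among tested genes, ZNF699, ZNF559, ZNF559-ZNF177 and ZNF266 were adjacent and all called lower, at -0.59, -0.73, -1.81 and -0.36. ZNF559-ZNF177 is a read-through annotation that shares 89.3% of its 100-base windows with ZNF177 and had under 1 CPM in both groups, so its counts cannot be told apart from those of its partners. The next 4 tested genes, ZNF426, ZNF121, ZNF561 and ZNF562, had estimates above 0, and ZNF121 (0.38), ZNF561 (0.33) and ZNF562 (0.41) passed the threshold. Exons of ZNF562 overlap the antisense gene ZNF561-AS1 over 18.9% of their length, and the strand setting of the counting is not known.

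ZNF114 was the most abundant of the 10 named falls, at 48.4, 43.6 and 42.8 CPM in the control libraries and 25.9, 28.5 and 24.8 CPM after BARD1 siRNA. All control libraries were above all BARD1 siRNA libraries (-0.77, SE 0.09, edgeR adjusted p = 5.13e-10). ZNF30 fell by 0.78 from 6.03 CPM. ZNF132, a gene known to be silenced by promoter methylation in prostate cancer, had a log2 fold change of -0.81 at an edgeR adjusted p of 0.0422. That call was lost without any one of 5 of the 6 libraries, with adjusted p from 0.0561 to 0.116, the exception being the third BARD1 siRNA library.

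Among members with a known role, ZNF350 encodes the BRCA1-binding repressor also called ZBRK1. It had 12.1, 9.69 and 12.8 CPM in the control libraries and 16.2, 14.6 and 15.8 CPM after BARD1 siRNA, and the groups did not overlap (0.43, SE 0.14, edgeR adjusted p = 0.00786). Without the second control library, its lowest, the log2 fold change was 0.32 and the adjusted p 0.0710. Background knowledge places ZNF350 with BRCA1 at the DNA damage gene GADD45A as repressors. GADD45A had 83.6 ± 5.48 CPM in control cells and 538 ± 13.7 CPM after BARD1 siRNA, and BRCA1 fell from 151 ± 12.2 to 95.5 ± 5.19 CPM (SD, n = 3 each). No link between these values was tested.

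ZNF274, which brings SETDB1 to zinc finger genes themselves, rose from 45.1 ± 3.10 to 59.4 ± 2.21 CPM (SD, n = 3 each; log2 fold change 0.40, edgeR adjusted p = 2.9e-05). ZNF91, a repressor of SVA retroelements, had 27.7, 20.5 and 27.7 CPM in the control libraries and 36.9, 35.5 and 34.8 CPM after BARD1 siRNA. The second control library was lowest and the groups did not overlap (0.49, SE 0.10, edgeR adjusted p = 6.04e-05). ZNF93, a repressor of LINE elements, had means of 10.2 and 10.3 CPM and did not pass (0.01, SE 0.15). The imprinted gene ZNF331 (0.07) and ZNF304 (-0.12), ZNF224 (0.09), ZNF382 (-0.05) and ZNF675 (-0.06) did not pass either. ZNF154 (0.09, SE 0.54) and ZNF671 (0.40, SE 0.36), often methylated in carcinomas, were so weakly expressed that their estimates had wide errors.

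Per kilobase of the deposited gene length, ZNF146 was the most abundant ZNF gene of the chromosome, at 32.9 CPM per kb. This gene encodes a protein made almost entirely of fingers, and its 6 libraries lay between 130 and 142 CPM with no call (0.05, SE 0.06). ZNF787 followed at 20.0 CPM per kb and was called higher by 0.26, although its groups overlapped, with 73.7 CPM in the highest control library and 72.3 CPM in the lowest BARD1 siRNA library. ZNF358 (18.8 CPM per kb) and ZNF580 (15.4 CPM per kb) did not pass. ZNF83 came next at 12.8 CPM per kb.

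Another promoter feature was common in the family whichever way its genes changed. The ETS-type letters CCGGAAG were found on either strand in 44.7% of the 217 matched windows, against 14.4% of matched protein-coding genes and 10.3% of all promoters in the table. Their share was 47.6% in the higher, 43.8% in the lower and 43.9% in the remaining tested ZNF genes. None of the windows of the 5 genes of 19p13.3 held them. The SP/KLF-type letters GGGCGG occurred in 68.2% and at least 1 CCAAT in 54.4% of the family's windows, against 59.7% and 36.4% of matched protein-coding genes. Over the whole family, CCAAT was found in 47.6% of the higher, 62.5% of the lower and 53.0% of the remaining tested genes. For GGGCGG the shares were 76.2%, 59.4% and 65.9%. CCAAT overlaps the longer letters counted above.

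A list of 26 tested genes held KRAB corepressors, TRIM28 relatives and other heterochromatin and DNA methylation genes. Of these, 13 were lower, 4 were higher and 9 did not pass, with a median log2 fold change of -0.23. That is 50.0% lower and 15.4% higher, beside 20.3% and 22.0% of all tested genes. The list of 26 genes was chosen with earlier results of these data known, so its shares are a description and were not tested. These genes are well expressed, with a median of 71.5 CPM, and among all genes at 10 CPM or more 26.2% were lower and 28.5% higher. TRIM28, the direct partner of the KRAB domain, had 609, 634 and 607 CPM in the control libraries and 512, 494 and 474 CPM after BARD1 siRNA, so the groups were apart (-0.32, SE 0.05, edgeR adjusted p = 7.8e-08). TRIM24, a TRIM28 relative, had 36.9, 31.0 and 36.4 against 17.2, 17.6 and 18.3 CPM (-0.98, SE 0.10, edgeR adjusted p = 1.53e-11). The HP1 genes CBX5 (-0.46), CBX3 (-0.30) and CBX1 (-0.28) fell together, as did the histone methyltransferase genes SUV39H1 (-0.55), SUV39H2 (-0.40) and EHMT2 (-0.35), while EHMT1 (0.04), the partner of EHMT2, did not pass. FAM208A, a HUSH complex gene, fell by 0.52, whereas the HUSH genes MPHOSPH8 (-0.12) and PPHLN1 (0.01) and the HUSH-linked MORC2 (0.03) did not pass. HDAC1 fell by 0.24, and HDAC2 (-0.02) did not pass. UHRF1 and DNMT1, which maintain DNA methylation, fell by 0.55 and 0.42.

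The de novo DNA methyltransferase genes went the other way. DNMT3B had 28.4, 31.2 and 29.7 CPM in the control libraries and 63.5, 59.2 and 56.9 CPM after BARD1 siRNA, and every BARD1 siRNA library was above every control (1.01, SE 0.08, edgeR adjusted p = 5.59e-15). DNMT3A rose by 0.57, MORC3 by 0.51 and TRIM33 by 0.30. SETDB1 had means of 45.0 and 48.5 CPM with overlapping groups and did not pass (0.11, SE 0.09).

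**Figure D5:**
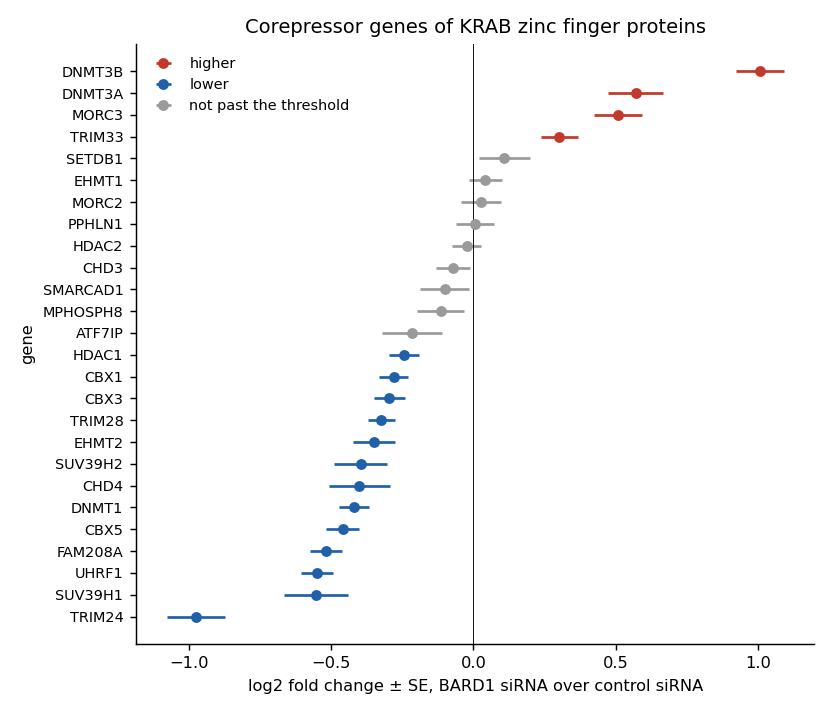
Log2 fold change with its SE (BARD1 siRNA over control siRNA) for the 26 listed corepressor and related genes, ordered by change. Red is higher, blue lower and grey not past the threshold. The 13 blue genes run from TRIM24 to HDAC1, and DNMT3B is the highest of the 4 red genes.

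Because these genes are related by duplication, reads can be split between copies. Of 248 genes with a transcript, 19 shared more than 20% of their 100-base windows with another gene; 14 of those were tested and 1 was called. Exons of 72 tested ZNF genes overlapped another tested gene, 29 of them a gene with more counts, and 5 of these 29 were called. Without both kinds, 40 of 195 ZNF genes were higher and 37 lower, or 39.5% called.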

How the data were processed

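Poly(A) RNA-seq was analysed from 3 control siRNA and 3 BARD1 siRNA libraries. The deposited values are raw counts per gene made by the authors; HISAT2, CASAVA and GRCh38 (hg38) are named in the submitters' processing notes, while no source used here gives the counting program, its strand setting or the annotation release. The deposited gene length was used for CPM per kb.

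Counts were filtered with filterByExpr (minimum count 10) and tested with edgeR 4.0.16 in R 4.3.3: TMM factors, group-only design, robust quasi-likelihood test, Benjamini-Hochberg adjustment over 15271 genes, threshold 0.05. The test was checked on simulated counts. Standard errors were derived from each log2 fold change and its F statistic. Of the tested ZNF genes, 8 reached the minimum in every library of only one group, 2 of them called (ZNF491 and ZNF559-ZNF177). Alternatives used limma 3.58.1, DESeq2 1.42.0, other scalings and filters, and left-out libraries. Fingers, KRAB motifs, overlaps and shared windows came from GENCODE v29 (GRCh38), translated because no protein table was used here, and the KRAB motif is a letter pattern that misses some domains; promoters came from RefSeq (GRCh38.p14), matched for 217 of 249 genes. No 2 libraries of a group agreed within sampling noise.

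Named genes were the 10 largest rises and falls among called ZNF genes with non-overlapping groups and a mean log2 CPM of at least 0, the 5 highest per kb, a list of genes with known roles, and corepressors. One gene of that list, ZNF268, lies on chromosome 12, is no member, and was lower (log2 fold change -0.34). Members and lists were chosen with earlier results of these data known.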

Additional observations from a re-analysis of the deposited data

How the results depend on the processing

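The counts of called ZNF genes stayed within 1.5 times of the main counts under every alternative run: other scalings, DESeq2, limma-voom, other filters, protein-coding genes only, no robust estimation, and leaving out each library, which gave 34 to 40 higher and 28 to 41 lower. The 5 ZNF genes of 19p13.3 were called higher in each of these fits. The median log2 fold change of the family moved from -0.03 to -0.0969 with upper-quartile factors and to -0.0908 with library size alone, more than the spread of that median between libraries (SD 0.0313); the median of all genes moved to -0.0727 and -0.0674. With a replicate block the counts were 46 higher and 39 lower. Same-numbered libraries did not deviate together (correlations from -0.03 to 0.015). This cannot show whether same-numbered samples were handled together, which the labels do not say. For 45 named genes, 711 of 719 alternative values stayed on the same side of the threshold and none of the called genes reversed; 7 lost the call (ZNF132 in 6 fits, ZNF350 in 1) and ZNF358 gained one without the third control library. Below 10 CPM 20.0% of all tested genes were called, against 54.7% at or above it. Whether missing calls of weakly expressed ZNF genes come from depth was not tested.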
